A study of Mus musculus with 48 samples.

Results

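The cortex of mG-cKO mice given RTI was compared with the cortex of untreated Ctrl mice at postnatal day 21, to ask which genes still differ from Ctrl under the treatment. The comparison used 3 mG-cKO-RTI and 3 Ctrl libraries, out of 48 samples in the series. Of the 55401 genes in the day-21 table, 16382 had a mean of at least 0.5 FPKM over these 6 libraries and were tested; FPKM is the authors' count of fragments scaled to gene length and library size. Around that limit, Itpr3 (0.500046 FPKM) and Gm26679 (0.500064 FPKM) were just inside, and Lama3 (0.499994 FPKM) and Gm13861 (0.499896 FPKM) just outside.

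The day-21 table holds 5 groups of 3 libraries each: Ctrl, mG-cKD, mG-cKD-RTI, mG-cKO and mG-cKO-RTI. In the titles these appear as WT for Ctrl, MT for mG-cKO and Het for mG-cKD, with RTI or Ctrl marking the treatment. The labels spell out neither mG nor RTI, name no deleted gene, Cre driver, strain, dose or duration, and do not say whether a library was 1 animal or a pool, so the deletion could not be checked in a targeted gene and the p-values below measure the spread between libraries. No RTI-treated Ctrl group was used here, so in mG-cKO-RTI against Ctrl the genotype and the treatment cannot be told apart.

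Several groups of genes described below have well known roles. Oligodendrocytes wrap cortical axons in myelin, a membrane rich in Mbp and galactolipids, and in mice most cortical myelin forms in the weeks after birth. C4b encodes complement component C4, a plasma and tissue protein that is cleaved and tags surfaces in the classical and lectin pathways. Meiotic and sperm genes are normally silent in the brain and are kept so by repressive chromatin and DNA methylation, the same means that silence endogenous retroviruses, which are proviral copies left in the genome by past infections.

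C4b stayed high under RTI. It was 1.95, 1.75 and 1.96 FPKM in Ctrl and 14.8, 17.0 and 17.5 FPKM in mG-cKO-RTI, so the groups did not overlap. The difference on the log2(FPKM + 1) scale was 2.59 ± 0.27 (standard error, n = 3 and 3; limma, Benjamini-Hochberg adjusted p = 1.28e-04). The exact two-sided permutation test of C4b alone gave p = 0.1, the smallest value that 3 against 3 libraries allow. Untreated mG-cKO had 21, 26.8 and 20.8 FPKM, which was 3.04 above Ctrl on the log2 scale. All 3 treated libraries were below all 3 untreated mG-cKO libraries, by 0.45 on average, and the 95% interval of that difference, -1.03 to 0.13, included 0 (limma, adjusted p = 0.959).

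The pseudogenes Stk19-ps1 and Skiv2l-ps1, next to C4b on chromosome 17, were also called higher. They were listed at 0 in every Ctrl library and at 4.84, 7.53 and 6.15 FPKM and 1.54, 2.77 and 3.22 FPKM in mG-cKO-RTI. Both were thus tested only because they were high in mG-cKO-RTI. C4b lies at 17:34728380-34743882 on the minus strand (mm10, GENCODE M21), and the run of raised genes reached position 34771228. That run was built from called genes only, so it does not show a rise of the whole region. C4a, a near-identical copy of C4b at 17:34809092-34823464, was 0.847, 0.496 and 0.753 FPKM in Ctrl and 1.21, 1.85 and 1.18 FPKM in mG-cKO-RTI, and how the authors' counting split reads between the copies is not given in the sources used here. Among 25 complement genes tested, C4b was the one past the threshold, against 2.41% of all genes tested, and the median difference of the list was 0.05 against 0.07 for all genes tested.

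Tcfl5 and Mal were the largest called rise and fall among protein-coding genes. Tcfl5, a transcription factor of the testis, was 0.216, 0.349 and 0.520 FPKM in Ctrl and 14.7, 13.4 and 15.4 FPKM in mG-cKO-RTI (difference 3.52 ± 0.17, adjusted p = 4.37e-08). It was 13.8, 17.0 and 15.5 FPKM in untreated mG-cKO, a range that includes 2 of the 3 treated libraries, and the treated minus untreated difference was -0.08 (95% interval -0.44 to 0.28). Mal, a small membrane protein of compact myelin, fell from 143, 114 and 118 FPKM to 26.1, 8.92 and 7.12 FPKM (difference -3.27 ± 0.35, adjusted p = 1.65e-04). Treated replicate 1 kept the most Mal, and untreated mG-cKO stood at 11.4, 9.37 and 8.45 FPKM.

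**Figure D1:**
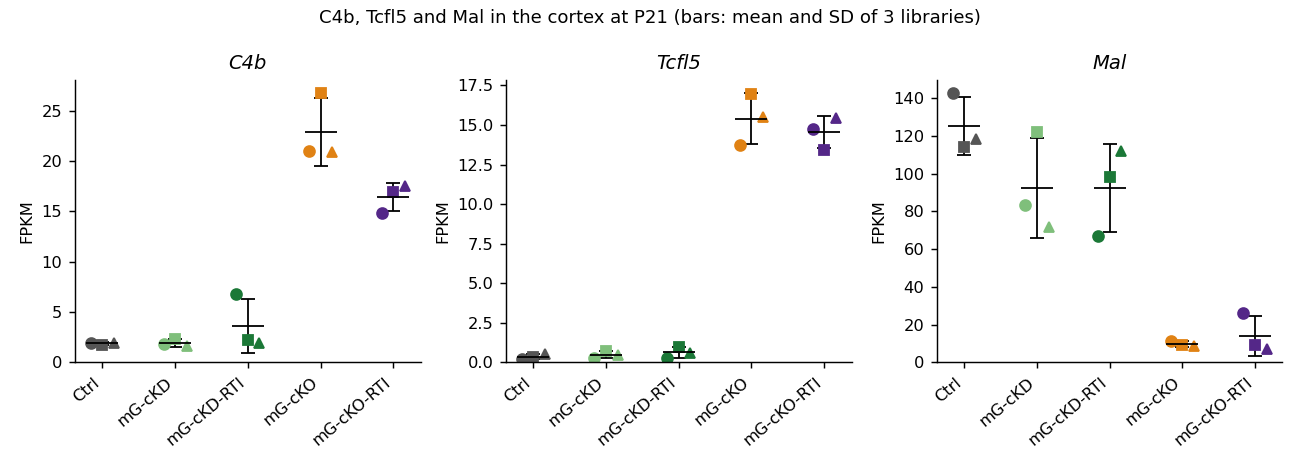
FPKM of C4b, Tcfl5 and Mal in each of the 15 libraries at day 21, with the mean and SD of 3 libraries per group; circles, squares and triangles are replicates 1, 2 and 3. C4b and Tcfl5 were high and Mal low in both mG-cKO groups, with or without RTI. In the mG-cKD groups Tcfl5 lay near Ctrl, and so did C4b except in mG-cKD-RTI replicate 1, at 6.75 FPKM. Mal in the mG-cKD groups was 66.8 to 122 FPKM, against 114 to 143 FPKM in Ctrl.

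Over all genes, 395 of 16382 (2.41%) passed an adjusted p of 0.05, of which 225 (1.37%) were higher and 170 (1.04%) lower in mG-cKO-RTI. A difference of at least 1 on the log2 scale was reached by 104 of the higher and 70 of the lower genes. The 2 groups did not overlap for 394 of the 395 genes, while 11.6% of all genes tested were higher and 5.96% lower with no overlap. The balance of the calls depended on scaling: 170 were higher and 219 lower after libraries were set to a common median, and 191 were higher and 206 lower after scaling by a trimmed mean of log ratios. Of the higher genes, 83 averaged under 0.5 FPKM in Ctrl, so they were tested only because they were high in mG-cKO-RTI, and 6 were listed at 0 in every Ctrl library.

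**Figure D2:**
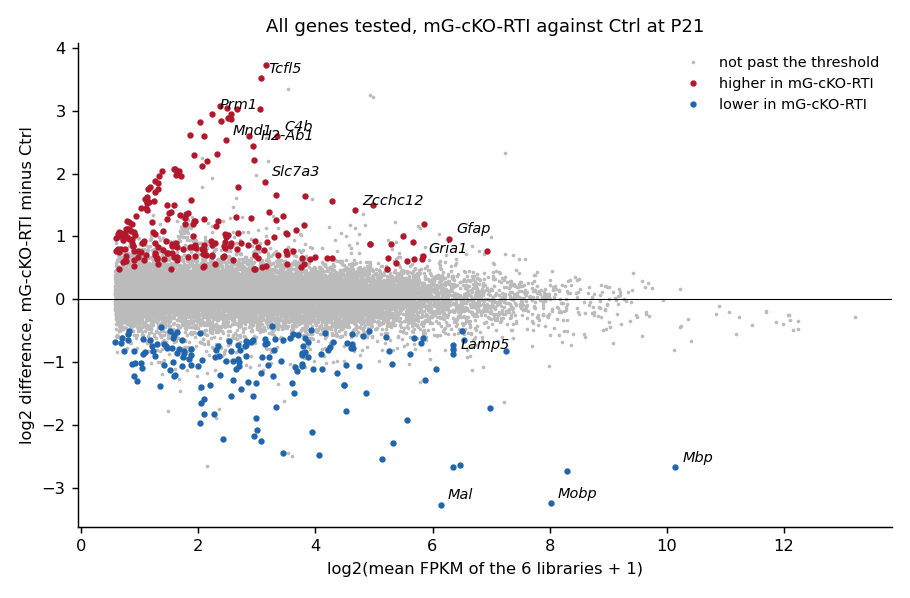
Log2 difference, mG-cKO-RTI minus Ctrl, against log2 of the mean FPKM of the 6 libraries plus 1, for the 16382 genes tested. The 225 genes called higher (red) lie mostly at low levels and the 170 called lower (blue) include the abundant myelin genes Mbp, Mobp and Mal.

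The other comparisons of the same table give the setting. Untreated mG-cKO against Ctrl called 362 genes (2.21%), 222 higher (1.36%) and 140 lower (0.855%). It shares its Ctrl libraries with the comparison above and had no term for replicate number. Hbb-bs and Ttr followed that number in both Ctrl and untreated mG-cKO. mG-cKO-RTI against mG-cKO called 1 gene (0.0061%), Gm20634, which was lower (limma), and 652 genes had an unadjusted p under 0.05. mG-cKD-RTI against Ctrl called 0 genes (limma; 623 at an unadjusted p under 0.05), mG-cKD-RTI against mG-cKD called 0 (352), and the difference between the RTI effects in mG-cKO and mG-cKD was called for 0 (236). Over the 225 higher genes the median distance from the Ctrl mean was 0.83, 0.97 and 1.03 in the treated libraries and 0.89, 0.91 and 0.82 in the untreated mG-cKO libraries. Over the 170 lower genes it was -0.83, -0.92 and -0.96 in the treated and -0.90, -0.94 and -0.77 in the untreated mG-cKO libraries. Both sets of genes were chosen on the treated and Ctrl values, which favours larger distances in the treated libraries. Whether treated libraries lay as far from Ctrl as untreated ones cannot be read from these medians.

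Libraries differed in ways that bear on these values. All 3 Ctrl libraries and mG-cKO-RTI replicate 1 were male by Xist and Ddx3y, and mG-cKO-RTI replicates 2 and 3 were female. The sum of FPKM was 344637 to 421747 over the 6 libraries and was high in Ctrl replicates 1 and 3 and in treated replicate 1, so within mG-cKO-RTI sex and this sum cannot be told apart; sequencing depth itself is unknown. Treated replicate 1 was the nearest of its group to the Ctrl mean for 136 of the 225 higher and 88 of the 170 lower genes. The number of calls was 234 without Ctrl replicate 1, 192 without Ctrl replicate 3, 183 without treated replicate 2 and 194 without treated replicate 3. It was 110 with the male treated library alone, and 333 with sex as a term in the fit.

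Myelin genes formed the main fall. Of the 34 compact myelin and oligodendrocyte genes tested, 29 fell, 0 rose and 5 did not pass, against 1.04% of all genes falling. The median difference of the list was -1.83, against 0.07 over all genes, and it was -2.33 in untreated mG-cKO. The summed level of the list was 3417 to 5105 FPKM in Ctrl and 659 to 1108 FPKM in mG-cKO-RTI. The 5 members that did not pass were Hapln2, Anln, Plekhb1, Enpp2 and Car2, named after their values were seen.

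All 12 of the largest decreases among protein-coding genes were in this list. Among structural proteins of compact myelin, Mbp, the basic protein that holds the cytoplasmic faces of the membrane together, fell from 1879, 1330 and 2682 FPKM to 403, 277 and 226 FPKM (difference -2.68 ± 0.33, adjusted p = 4.34e-04). Mobp, another basic protein of compact myelin, fell from 492, 389 and 498 FPKM to 107, 38.1 and 25.7 FPKM (-3.25 ± 0.35, adjusted p = 1.65e-04). Every treated library was far below every Ctrl library for both genes, and replicate 1 was the highest of the 3.

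Proteins of other myelin compartments followed. Mag, the adhesion protein next to the axon, fell from 151, 112 and 159 FPKM to 28.8, 20.8 and 15.2 FPKM, and Mog, on the outer myelin surface, from 71.6, 49.1 and 55.7 FPKM to 13.7, 8.19 and 6.75 FPKM. Cldn11, the claudin of myelin tight junctions, fell from 167, 133 and 157 FPKM to 27.4, 23 and 20.3 FPKM, and Gjb1, the connexin of oligodendrocyte gap junctions, from 6.09, 5.34 and 12 FPKM to 1.53, 0.560 and 0.461 FPKM. Fa2h, which makes the hydroxylated fatty acids of myelin galactolipids, fell from 25.7, 20.1 and 36.5 FPKM to 4.29, 3.76 and 3.78 FPKM. The differences of these 5 genes lay between -2.22 and -2.67. Gsn (gelsolin, an actin-severing protein), Opalin (a membrane protein of oligodendrocytes) and Ppp1r14a (a phosphatase inhibitor) fell by 2.29, 2.26 and 2.46.

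Treated and untreated mG-cKO libraries stood close for these genes. No member of the myelin list passed the test between treated and untreated mG-cKO, and the median of that difference was 0.41, against 0.01 for all genes. For Mobp the treated minus untreated difference was 0.50 with a 95% interval of -0.25 to 1.25; an interval of this width includes no change and a rise of more than 1 on the log2 scale. In whole cortex, fewer oligodendrocytes and less myelin RNA per cell cannot be told apart.

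The fall differed in size between the treated libraries. The list's median distance from the Ctrl mean was -1.38 in replicate 1 and -2.0 and -2.20 in replicates 2 and 3. With the male library as the only treated one, 8 of the 34 members were called (Mbp at adjusted p = 0.0578, Mag 0.112, Mog 0.138, Gjb1 0.0726, Gsn 0.119, Opalin 0.246 and Ppp1r14a 0.174), and with sex as a term 28 were. Leaving out any 1 library of the 2 groups gave 22 to 30.

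**Figure D3:**
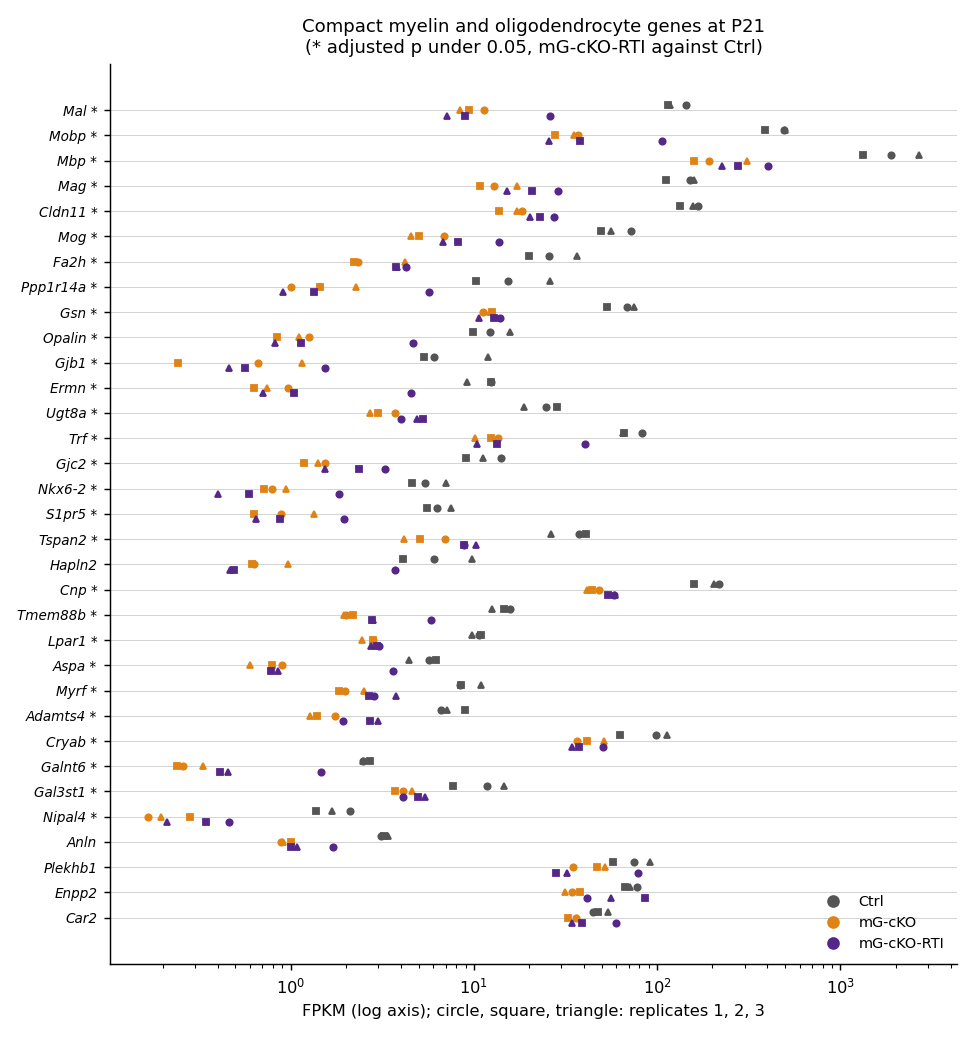
FPKM on a log axis of 33 compact myelin and oligodendrocyte genes in Ctrl, mG-cKO and mG-cKO-RTI, 3 libraries each, ordered from the largest fall at the top; a star marks an adjusted p under 0.05. Treated and untreated mG-cKO libraries lie together to the left of Ctrl for the 28 starred genes, and treated replicate 1 (circle) is often the treated library nearest Ctrl.

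Earlier oligodendrocyte stages showed less. Of 18 precursor genes tested, 2 fell and 0 rose, against 1.04% of all genes falling, with a list median of -0.23. Sox10, the lineage transcription factor, fell from 18, 15.4 and 28.0 FPKM to 7.20, 9.33 and 9.51 FPKM (adjusted p = 0.029), and Olig2 from 12.8, 10.6 and 13.6 FPKM to 7.02, 7.83 and 7.45 FPKM (adjusted p = 0.0294). Sox10 is also expressed in mature oligodendrocytes. These calls were lost without Ctrl replicate 1 (adjusted p = 0.0642 and 0.106), Ctrl replicate 3 (0.136 and 0.134) and treated replicate 1 (0.0731 and 0.0605), 2 (0.082 for both) or 3 (0.0715 and 0.1). Pdgfra, the receptor that marks precursors, was 6.82, 8.89 and 5.63 FPKM in Ctrl and 4.34, 7.46 and 7.30 FPKM in mG-cKO-RTI, and the groups overlapped. Gpr17, a receptor of cells about to mature, was 4.33 FPKM in treated replicate 1 and 22.7 and 28.2 FPKM in replicates 2 and 3, against 19.8 to 26.1 FPKM in Ctrl. The list median was -0.68 in replicate 1 and 0.04 and 0.004 in the others.

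Germline genes stayed on. Of 11 germline genes that reached the limit (of 44 in the table), 5 rose and 0 fell, against 1.37% of all genes rising, and the median of the 11 was 1.02. Low genes could reach the limit only through mG-cKO-RTI, so this count and median describe the genes that passed it; with no limit on level the median of the list was 0.13. The raised genes were Tcfl5, Mnd1, Stag3, Sycp3 and Prm1. Mnd1, a partner in meiotic strand exchange, was 0.428, 0.516 and 0.851 FPKM in Ctrl and 5.47, 9.21 and 10.8 FPKM in mG-cKO-RTI (difference 2.53 ± 0.43, adjusted p = 0.00471). Stag3, the meiotic cohesin subunit, was 0.469, 0.505 and 0.682 FPKM in Ctrl and 2.73, 3.45 and 4.16 FPKM in mG-cKO-RTI (1.51 ± 0.17, adjusted p = 2.03e-04). Sycp3, a core protein of the synaptonemal complex, was 0.067, 0.207 and 0.082 FPKM in Ctrl and 1.71, 0.859 and 0.955 FPKM in mG-cKO-RTI (0.94 ± 0.16, adjusted p = 0.0054).

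Prm1, the protamine that packs sperm DNA, was listed at 0, 0.270 and 0 FPKM in Ctrl and at 6.88, 7.63 and 7.5 FPKM in mG-cKO-RTI (2.94 ± 0.56, adjusted p = 0.0131). mG-cKD libraries also carried it, at 5.81, 3.13 and 7.26 FPKM untreated and 0, 6.75 and 6.33 FPKM with RTI. Untreated mG-cKO had 5.99, 7.29 and 7.49 FPKM, so Prm1 stood near its mG-cKO level in most mG-cKD libraries. Whether its reads came from the Prm1 gene itself was not tested. Tcfl5, Mnd1, Stag3 and Sycp3 were under 1 FPKM in all 6 mG-cKD libraries, and Sycp3 was above every Ctrl library in each of them, at 0.246 to 0.759 FPKM. The Prm1 call was lost without Ctrl replicate 1 (adjusted p = 0.0527) or 3 (0.0721), or treated replicate 2 (0.0608) or 3 (0.0603), and with the male treated library alone (0.217), where Mnd1 was not called either (0.215). mG-cKD-RTI replicate 1, listed at 0 for Prm1, also had C4b at 6.75 FPKM and Mag at 41.1 FPKM, against 139 and 141 FPKM of Mag in the other mG-cKD-RTI libraries; without it, 459 genes were called between mG-cKO-RTI and Ctrl.

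The promoters of 4 of these genes are printed because the genes rose together and the windows share a short motif. Each is the RefSeq window of 250 bases before to 50 bases after the gene start (GRCm38.p6), 5′ to 3′ on the gene's strand. Capitals mark TCCCGC or its reverse complement GCGGGA, letters of E2F-type sites, and CACGTG, an E-box that reads the same on both strands.
Tcfl5 (chr2:180642642-180642941, minus strand): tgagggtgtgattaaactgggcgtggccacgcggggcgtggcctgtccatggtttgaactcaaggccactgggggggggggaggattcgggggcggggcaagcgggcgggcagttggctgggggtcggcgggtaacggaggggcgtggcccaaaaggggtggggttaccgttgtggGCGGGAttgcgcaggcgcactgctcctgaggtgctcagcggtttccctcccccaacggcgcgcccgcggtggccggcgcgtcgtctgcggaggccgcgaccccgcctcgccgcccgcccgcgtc
Mnd1 (chr3:84155737-84156036, minus strand): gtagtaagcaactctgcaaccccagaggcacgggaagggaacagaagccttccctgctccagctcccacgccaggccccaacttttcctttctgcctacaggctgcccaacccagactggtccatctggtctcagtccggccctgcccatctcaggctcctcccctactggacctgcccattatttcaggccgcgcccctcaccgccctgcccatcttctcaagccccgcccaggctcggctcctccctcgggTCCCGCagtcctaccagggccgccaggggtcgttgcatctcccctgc
Stag3 (chr5:138280259-138280558, plus strand): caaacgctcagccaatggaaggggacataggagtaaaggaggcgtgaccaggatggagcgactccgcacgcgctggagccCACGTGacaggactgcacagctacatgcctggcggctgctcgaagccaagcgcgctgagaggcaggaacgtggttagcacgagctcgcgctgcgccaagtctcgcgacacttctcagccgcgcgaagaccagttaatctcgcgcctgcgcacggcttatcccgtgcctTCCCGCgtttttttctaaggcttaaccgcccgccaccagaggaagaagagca
Sycp3 (chr10:88459337-88459636, plus strand): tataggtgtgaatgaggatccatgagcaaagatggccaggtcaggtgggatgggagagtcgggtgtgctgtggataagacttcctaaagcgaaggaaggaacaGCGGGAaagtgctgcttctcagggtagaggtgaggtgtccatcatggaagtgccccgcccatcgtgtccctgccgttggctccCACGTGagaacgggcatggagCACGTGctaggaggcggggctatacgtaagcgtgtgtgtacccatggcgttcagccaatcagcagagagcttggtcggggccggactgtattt
These 4 were printed because they hold TCCCGC in either direction, so that number is fixed by the choice; over the raised germline genes it was 4 of 5, and the motif stood in 19.98% of the 32851 RefSeq promoter windows of the mouse. CACGTG stood once in Stag3 and at 2 places in Sycp3, and in 7.15% of all windows; both motifs stood in 1.99%. The window of Prm1 (16:10796774-10797073, minus strand) held neither. A match is a description of the letters and does not show that a factor bound there.

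**Figure D4:**
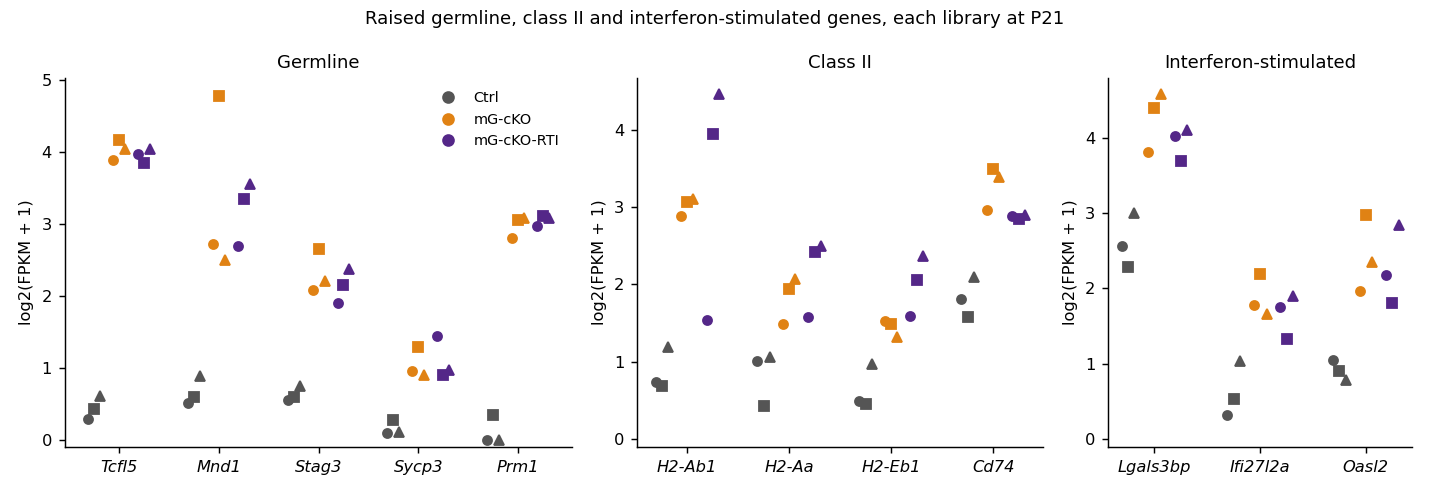
Log2(FPKM + 1) of the called germline, class II and interferon-stimulated genes in each Ctrl, mG-cKO and mG-cKO-RTI library; circles, squares and triangles are replicates 1, 2 and 3. All treated libraries lie above all Ctrl libraries for each gene, and H2-Ab1 ranges from 1.91 FPKM in treated replicate 1 to 21 FPKM in replicate 3.

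Some class II antigen presentation genes rose. Of 6 genes tested, 4 rose and 0 fell, against 1.37% of all genes rising, with a list median of 1.19. Members could reach the limit through mG-cKO-RTI, and with no limit on level the median was 0.17 and 3 were called. These genes encode the heterodimer that presents peptides to CD4 T cells, and its chaperone. H2-Eb1 was 0.403, 0.370 and 0.964 FPKM in Ctrl and 2.02, 3.16 and 4.15 FPKM in mG-cKO-RTI (difference 1.37 ± 0.19, adjusted p = 0.00131). Cd74, the invariant chain, was 2.51, 1.99 and 3.28 FPKM in Ctrl and 6.41, 6.19 and 6.44 FPKM in mG-cKO-RTI (1.05 ± 0.19, adjusted p = 0.00791). For both genes the groups were well apart.

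H2-Ab1 and H2-Aa varied more. H2-Ab1 was 0.673, 0.614 and 1.29 FPKM in Ctrl and 1.91, 14.5 and 21 FPKM in mG-cKO-RTI (2.44 ± 0.54, adjusted p = 0.029), with the male replicate far below the 2 female ones. H2-Aa was 1.01, 0.342 and 1.09 FPKM in Ctrl and 1.99, 4.36 and 4.66 FPKM in mG-cKO-RTI (1.34 ± 0.27, adjusted p = 0.0161). With sex as a term their adjusted p was 0.105 and 0.0703, and with the male treated library alone 0 of the 6 genes were called (H2-Eb1 0.103, Cd74 0.152). The count of called members was 3 without Ctrl replicate 1 or 3 and 2 without Ctrl replicate 2 or treated replicate 2 or 3. Untreated mG-cKO, all male, had 6.38, 7.36 and 7.63 FPKM of H2-Ab1. H2-DMa and H2-DMb1, which load the peptide, did not pass (adjusted p = 0.724 and 0.706; named after their values were seen).

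Markers of the cells that carry class II genes did not pass the test. No homeostatic microglia gene of 20 tested was called (median 0.07), nor any of 16 phagocytic and disease-associated microglia genes (0.16), and their summed level was 186 to 223 FPKM in Ctrl and 194 to 273 FPKM in mG-cKO-RTI for the homeostatic list. Of 23 markers of other leukocytes, 5 reached the limit and none was called. The summed level of all 23 was 8.23 to 10.2 FPKM in Ctrl and 5.03 to 10.9 FPKM in mG-cKO-RTI. Their part in the class II result was not tested.

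Few interferon-stimulated genes passed the test. Of 31 tested, 3 rose and 0 fell, against 1.37% of all genes rising, and the median was 0.56, with all 31 differences above 0. The count above 0 includes genes whose groups overlap. The groups did not overlap for 20 of the 31, all higher in mG-cKO-RTI, against 11.6% of all genes tested that were higher with no overlap. Lgals3bp, a secreted glycoprotein, was 4.89, 3.88 and 6.97 FPKM in Ctrl and 15.2, 11.9 and 16.2 FPKM in mG-cKO-RTI (1.32 ± 0.22, adjusted p = 0.00356). Ifi27l2a was 0.247, 0.447 and 1.06 FPKM in Ctrl and 2.38, 1.52 and 2.74 FPKM in mG-cKO-RTI (adjusted p = 0.0161), and Oasl2, of the oligoadenylate synthetase family, 1.06, 0.872 and 0.724 FPKM against 3.53, 2.5 and 6.17 FPKM (adjusted p = 0.0388). In untreated mG-cKO the list median was 0.64 with 4 called, and treated minus untreated mG-cKO had a median of -0.01 with none called.

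The interferon calls were unstable. The count was 1 without Ctrl replicate 1, Ctrl replicate 2 or treated replicate 3, 2 without Ctrl replicate 3, 5 without mG-cKD-RTI replicate 1 and 6 without treated replicate 1. Ifi27l2a was lost without Ctrl replicate 1 (adjusted p = 0.0819) or 2 (0.0522) or treated replicate 3 (0.088), and Oasl2 without any Ctrl library (0.0792 to 0.144) or treated replicate 1 (0.0583) or 3 (0.187). With the male treated library alone the 3 genes had adjusted p of 0.0812, 0.119 and 0.253 (Lgals3bp, Ifi27l2a, Oasl2). Class I antigen presentation (15 tested, median 0.38) and nucleic acid sensing (20 tested, median 0.13) had no called gene. Nor had retroelement silencing (26 tested, 0.20) or the removal of RNA:DNA hybrids (18 tested, 0.17).

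Some clustered protocadherins, on chromosome 18, rose. These genes encode neuronal cell-surface adhesion proteins, and each neuron chooses a few of their alternative first exons. Of 56 tested, 14 rose and 0 fell, against 1.37% of all genes rising, with a median of 0.31, and chromosome 18 had the highest share of raised genes of any chromosome (19 of 469, 4.05%). Pcdha1 was 0.584, 0.488 and 0.513 FPKM in Ctrl and 3.70, 6.92 and 8.27 FPKM in mG-cKO-RTI (2.20 ± 0.21, adjusted p = 7.81e-05). Pcdhga7 was 3.57, 3.38 and 4.34 FPKM in Ctrl and 10.3, 18.7 and 14.2 FPKM in mG-cKO-RTI (1.66 ± 0.17, adjusted p = 1.28e-04), and Pcdhb8 0.887, 1.05 and 0.568 FPKM against 4.22, 3.63 and 5.73 FPKM (1.58 ± 0.19, adjusted p = 4.04e-04).

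Some protocadherins were among the genes with the smallest p between treated and untreated mG-cKO. Pcdhga4 was 6.51, 7.0 and 6.50 FPKM in untreated mG-cKO and 2.60, 3.43 and 2.82 FPKM with RTI. In Ctrl it was 3.02, 3.25 and 1.68 FPKM. Pcdhga8 was 16.3, 53.4 and 36.0 FPKM in untreated mG-cKO and 6.83, 14.6 and 14.1 FPKM with RTI, against 1.58 to 1.71 FPKM in Ctrl. Pcdhgb8 was 3.61, 2.32 and 1.54 FPKM in untreated mG-cKO and 12.5, 3.0 and 27.3 FPKM with RTI. None of these differences passed after adjustment (limma, adjusted p = 0.720 for Pcdhga4 and 0.959 for Pcdhga8 and Pcdhgb8), and for Pcdhgb8 the groups overlapped. Members of the alpha and gamma clusters share their last exons, so the values of single genes there are uncertain. With the male treated library alone 5 were called higher and 1 lower, and Pcdhga8 had an adjusted p of 0.164.

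Many raised genes had no assigned function. Entries of the TEC class of GENCODE, transcribed regions that await experimental evidence, were raised in 26 of 228 cases (11.4%), against 149 of 13534 protein-coding genes (1.10%), 28 of 1171 long noncoding genes (2.39%) and 19 of 1086 pseudogenes (1.75%). Their median Ctrl level was 0.144 FPKM, under the limit for testing, so most could be tested only because they were high in mG-cKO-RTI. Counting raised genes within 100 kb of one another gave 18 runs with 48 genes, most of them named genes such as protocadherins; how many runs chance would give was not tested. They included H2-Ab1, H2-Aa and H2-Eb1 on chromosome 17, Gm13283 and Gm13284 on chromosome 4 (4:88760119-88771606), and Gm42687, Gm43107 and Gm43108 on chromosome 3 (3:115910370-115914182), chosen after their values were seen. Overlapping entries, and entries antisense to a gene, may share reads.

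The remaining large rises were single genes. Bglap3, of the osteocalcin family, was 1.0, 0.608 and 0.612 FPKM in Ctrl and 2.86, 17.8 and 15 FPKM in mG-cKO-RTI (2.60 ± 0.41, adjusted p = 0.00299), and was 21.3, 21.4 and 26.2 FPKM in untreated mG-cKO. With the male treated library alone the difference of Bglap3 was 1.16. Apoc1, an apolipoprotein, was 0.438, 0.251 and 0.953 FPKM in Ctrl and 3.02, 7.35 and 11.9 FPKM in mG-cKO-RTI (2.32 ± 0.37, adjusted p = 0.00325). Gramd1c, a sterol transfer protein, was 0.267, 0.889 and 0.402 FPKM in Ctrl and 3.02, 7.63 and 6.99 FPKM in mG-cKO-RTI (2.12 ± 0.27, adjusted p = 6.75e-04). In each the treated male replicate was the lowest of its group, and with it alone Apoc1 (adjusted p = 0.181) and Gramd1c (0.069) were not called. Slc7a3, a transporter of cationic amino acids, was 3.33, 2.28 and 2.44 FPKM in Ctrl and 8.05, 16.4 and 14.2 FPKM in mG-cKO-RTI (1.87 ± 0.27, adjusted p = 0.00166; 0.144 with the male library alone). Got1l1, an aspartate aminotransferase relative, was 0.375, 0.365 and 0.199 FPKM in Ctrl and 5.36, 4.34 and 2.90 FPKM in mG-cKO-RTI (1.96 ± 0.26, adjusted p = 9.42e-04).

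Astrocyte and excitatory neuron genes had few calls. Of 17 reactive astrocyte genes tested, 1 was called, against 2.41% of all genes: Gfap, the astrocyte filament protein, rose from 55.2, 43.1 and 53.8 FPKM to 68.7, 108 and 132 FPKM (0.97 ± 0.21, adjusted p = 0.0228). Its call was lost without any 1 Ctrl library (adjusted p = 0.052 to 0.0736), without treated replicate 2 (0.108) or 3 (0.116), with sex as a term (0.107) and with the male treated library alone (0.444). None of 20 astrocyte genes and none of 21 excitatory neuron genes was called (medians 0.02 and -0.19).

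Of 21 inhibitory neuron genes, 2 rose and 2 fell, against 1.37% and 1.04% of all genes. Calb2, the calcium-binding protein calretinin, rose from 7.0, 6.35 and 9.10 FPKM to 14.6, 24.2 and 16.6 FPKM (1.18 ± 0.18, adjusted p = 0.0026; 0.119 with the male library alone). Htr3a, a serotonin-gated channel, had an adjusted p of 0.0426, Pvalb, the calcium-binding protein of fast-spiking interneurons, 0.0294, and Lamp5, a membrane protein of some interneurons and of excitatory cells, 0.0188. Pvalb fell from 40.1, 26.4 and 59.5 FPKM to 23.5, 10.9 and 9.36 FPKM, and Lamp5 from 119, 90.3 and 107 FPKM to 61.4, 55.7 and 52.4 FPKM. Htr3a was lost without any 1 of the 6 libraries (adjusted p = 0.0522 to 0.161). Pvalb and Lamp5 were lost without Ctrl replicate 1 or 3 or treated replicate 2 or 3 (0.0722 to 0.145). With sex as a term these calls were lost too (limma, adjusted p = 0.156 for Htr3a, 0.120 for Pvalb and 0.0501 for Lamp5). The difference of Pvalb was -1.50, and -0.74 with the male treated library alone. For Lamp5 these values were -0.88 and -0.76.

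Zcchc12, a zinc-finger gene derived from a retrotransposon, rose from 15.7, 10.3 and 13.1 FPKM to 33.3, 39.5 and 35.7 FPKM (1.42 ± 0.18, adjusted p = 5.22e-04; 0.0515 with the male library alone). It was 34.0, 24.7 and 27.1 FPKM in untreated mG-cKO. It was 1 of 2 genes called among 18 host genes derived from retroelements, against 2.41% of all genes; the other, Pnma1, had an adjusted p of 0.0493, and its call was lost without any 1 of the 6 libraries (0.0802 to 0.180). Gria1, an AMPA receptor subunit, was the 1 gene called of 36 synapse genes, a share near the 2.41% of all genes. It rose from 42.4, 45.2 and 40.7 FPKM to 71.9, 66.2 and 64.7 FPKM (0.65 ± 0.12, adjusted p = 0.0122). It was lost without Ctrl replicate 3 (0.0573) or treated replicate 2 (0.0507) and with the male library alone (0.119).

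Tissue at the edge of the cortex varied between libraries without a call. Ttr, the transthyretin of choroid plexus, was 55.7, 1.44 and 69.3 FPKM in Ctrl and 8.28, 508 and 257 FPKM in mG-cKO-RTI. The summed level of 14 choroid plexus genes, 10 of them tested, was 71.8 to 147 FPKM in Ctrl and 53.7 to 625 FPKM in mG-cKO-RTI. The female replicates were highest. The list members Otx2, Aqp1 and Folr1 were listed at 0.0744 to 5.75 FPKM in mG-cKO-RTI. The median of 14 meningeal genes was 0.06, of 24 endothelial and pericyte genes -0.12 and of 5 erythroid genes 1.14, none of them called. Of 18 markers of striatum, thalamus and hippocampus, Calb2 and Wfs1 rose and Pou3f1 fell, against 1.37% and 1.04% of all genes; Wfs1 (adjusted p = 0.0491) was lost without any 1 library except treated replicate 1 (0.0903 to 0.208), and Pou3f1 (0.0311) without any 1 except Ctrl replicate 2 (0.0501 to 0.148). Immediate early genes (27), heat shock genes (18), cytosolic ribosomal protein genes (77), mitochondrially encoded genes (37), cholesterol synthesis genes (24) and autism risk genes (42) had no called member, with medians of -0.22, 0.21, 0.27, -0.23, -0.02 and 0.10. H2-Ab1, H2-Aa and H2-Eb1 were likewise highest in the female treated libraries, and the part of choroid plexus in that result was not tested.

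**Figure D5:**
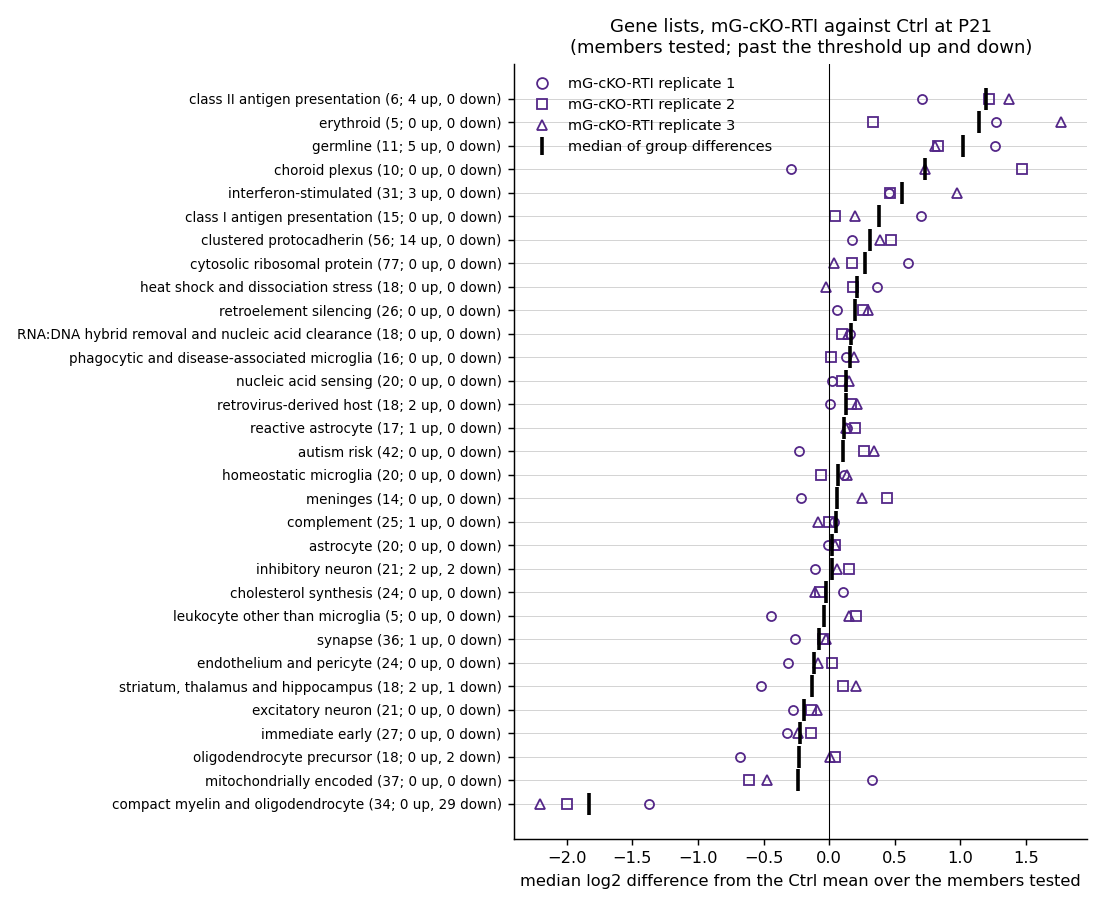
Median log2 difference from the Ctrl mean over the tested members of 31 gene lists, for each mG-cKO-RTI library (open symbols) and for the group difference (black bar); brackets give the members tested and the number past the threshold up and down. Myelin genes lie lowest in all 3 treated libraries, and choroid plexus and mitochondrially encoded genes are on opposite sides of 0 in replicate 1 and in replicates 2 and 3.

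Libraries of other ages gave a separate measure. The table of P1 to P45 holds untreated mG-cKO and Ctrl libraries that do not enter the day-21 values, with 2 per group at P14 and 3 at P45. At P14, 53 of 19733 genes (0.269%) were higher and 15 (0.076%) lower in mG-cKO, together 0.345%, and at P45 137 (0.694%) and 91 (0.461%), together 1.16%. Of the 225 genes raised in mG-cKO-RTI at day 21, 191 were tested in that table: 40 were called higher at P14 (20.9% of the 191, and 76.9% of the P14 list tested in both tables) and 60 at P45 (31.4% and 47.2%). Of the 170 lowered genes 152 were tested: 13 were called lower at P14 (8.55% and 86.7%) and 56 at P45 (36.8% and 63.6%).

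C4b, Tcfl5 and Mal were changed at both ages without RTI. The difference between mG-cKO and Ctrl was 2.52 at P14 and 2.74 at P45 for C4b, 2.83 and 2.85 for Tcfl5, and -2.64 and -2.26 for Mal (limma, adjusted p at most 3.67e-05). Mean C4b was 15 FPKM in mG-cKO and 1.76 FPKM in Ctrl at P14, and 24.0 and 2.70 FPKM at P45. Other named genes did not all pass, and those given here are examples. Mbp had an adjusted p of 1 at P14 and 0.433 at P45. At P14 Mog (limma, adjusted p = 0.941), Fa2h (0.372), Ppp1r14a (0.248), Mag (0.204), Gjb1 (0.177), Apoc1 (0.158), Mobp (0.0984) and Bglap3 (0.0594) did not pass. The difference of Mbp was -1.91 at P14 and -2.20 at P45. At P14 the difference was -1.51 for Mog, -1.28 for Fa2h, -1.08 for Ppp1r14a, -2.06 for Mag and -1.05 for Gjb1. For Apoc1, Mobp and Bglap3 it was 1.95, -2.76 and 2.54. At P45 all of these except Mbp passed (limma, adjusted p at most 0.029). Sycp3 had differences of 0.01 at P14 and 0.17 at P45. H2-Ab1 differed by 3.58 at P14 and 0.70 at P45, where it did not pass (limma, adjusted p = 0.835). Htr2c (0.15 at P14 and 0.22 at P45) and Pcdhgb8 (0.40 and 0.85) did not pass at either age.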

How the data were processed

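Per the labels, TRIzol was used to extract RNA of mouse cortex and a NEB Next Ultra kit to make libraries. STAR 2.5.3a, featureCounts 2.0.4, Trim Galore 0.6.5 and the build mm10 are listed without roles, per the submitters' processing notes. The values are FPKM per gene as deposited by the authors; counts and depth are unknown at day 21, so no count test was run and FPKM gives no counting interval. Of 55401 gene identifiers, 99.5% matched GENCODE M21, which gave coordinates and gene types. Genes whose mean FPKM in the 6 libraries compared reached 0.5 were fitted on log2(FPKM + 1) with limma 3.58.1 in R 4.3.3 (1 mean per group, all 15 day-21 libraries, mean-variance trend, robust) and p-values were adjusted by Benjamini and Hochberg over 16382 genes; a fold on this scale understates changes of low genes. Differences are mG-cKO-RTI minus Ctrl, ± standard error, with n = 3 libraries per group. The table of P1 to P45 was fitted in the same way on its own 20 libraries, 2 per group at P14 and 3 at P45. The procedure was tested on simulated data. Text names C4b, Tcfl5 and Mal, the 12 largest called rises and falls among protein-coding genes without placeholder names and with groups that do not overlap, up to 4 called genes per list, and the genes most different between mG-cKO-RTI and mG-cKO. The members and lists were chosen with earlier results of these data known. Alternatives were the pseudocount, the filter, scaling, the libraries fitted, a block for replicate number, and the trend; sex, the class of FPKM sum, the male mG-cKO-RTI library alone and leaving out mG-cKD-RTI replicate 1 were added after the data were seen. 1 gene that the rule names is not reported here. Tables of NPC and of CT and VPA samples were not used here.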

Additional observations from a re-analysis of the deposited data

How the results depend on the processing

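C4b kept its direction and stayed past the threshold under all alternatives run, at 2.46 to 3.06 on the log2 scale, and no named gene that was past the threshold reversed. Counts of called genes moved more. Against 395 (225 higher, 170 lower), the 6 libraries fitted alone gave 145 (92 and 53), and all genes without the filter gave 294 (191 and 103), with 34727 genes tested. Leaving out 1 library of either group gave 183 to 520 called genes, 113 to 317 higher and 70 to 203 lower. The male mG-cKO-RTI library alone gave 110 (72 and 38), where the lone library is assumed to vary like the other groups, and 72 of the 395 calls were kept. Replicate numbers did not pair Ctrl with mG-cKO-RTI (correlation of deviations 0.34, 0.21 and -0.22). Among untreated groups Hbb-bs and Ttr followed the replicate number in part. In replicates 1, 2 and 3 Hbb-bs was 9.77, 160.6 and 19.88 FPKM in Ctrl and 8.56, 166.9 and 20.96 FPKM in mG-cKO. It was 8.3, 194.5 and 16.02 FPKM in mG-cKD, but 77.82, 37.07 and 103.1 FPKM in mG-cKO-RTI. Ttr was 55.69, 1.44 and 69.27 FPKM in Ctrl and 57.86, 2.98 and 77.32 FPKM in mG-cKO. In mG-cKD it was 1.87, 5.49 and 3.18 FPKM. Whether other genes did so was not tested. With the replicate number as a block, 15 libraries gave 441 (253 and 188) and the 6 libraries 126 (76 and 50). The cause of these counts was not tested. A pseudocount of 0.1 gave 371, a mean of at least 1 FPKM 334, no trend 388 and the class of FPKM sum as a term 406. Fitted on the 6 libraries alone, 20 named genes lost their calls, among them Bglap3 (adjusted p = 0.0888), Sycp3 (0.0604), Ppp1r14a (0.0685) and Pcdhgb8 (0.0966). Common median scaling ended the calls, among named genes, of Oasl2 (0.0523), Pnma1 (0.106), Htr3a (0.122) and Wfs1 (0.0759). Depth is unknown, so what low FPKM can resolve cannot be stated.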

Other observations

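A few raised genes of amino acid transport, tRNA handling and protein folding were picked after their values were seen; they are single genes, and no test of them as a group was made. Trib3, a pseudokinase, was 0.107, 0.026 and 0.237 FPKM in Ctrl and 0.550, 1.14 and 1.25 FPKM in mG-cKO-RTI (difference 0.80, limma adjusted p = 0.0104). Slc1a4, a transporter of neutral amino acids, was 12.9, 13.4 and 13.5 FPKM in Ctrl and 20.1, 23.6 and 21.1 FPKM in mG-cKO-RTI (0.66, adjusted p = 0.00206). Cars, the cysteinyl-tRNA synthetase, rose by 0.66 (adjusted p = 0.0135) and Xpot, the exporter of tRNA from the nucleus, by 0.65 (adjusted p = 0.0357). Nucb2 and Derl3, the latter a factor of degradation from the endoplasmic reticulum, rose by 1.10 and 0.83. All treated libraries were above all Ctrl libraries for these genes. Ddit3, a stress-induced transcription factor, was 22.7, 16 and 18.2 FPKM in Ctrl and 40.8, 30.7 and 26.3 FPKM in mG-cKO-RTI and did not pass (adjusted p = 0.115).

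A few genes differed more between mG-cKO-RTI and mG-cKO than between mG-cKO-RTI and Ctrl, and are given from those with the smallest p in the former. Gm20634 was 2.37, 2.23 and 2.37 FPKM in mG-cKO, 0.0735, 0.486 and 0.393 FPKM with RTI and 1.57, 2.05 and 1.74 FPKM in Ctrl (treated minus untreated -1.35, adjusted p = 0.00775). P2ry12, the purinergic receptor of resting microglia, was 8.16, 8.20 and 9.42 FPKM in mG-cKO, 13.5, 11.6 and 14.8 FPKM with RTI and 12, 12.5 and 12 FPKM in Ctrl. Pycr1, an enzyme of proline synthesis, was 2.49, 3.09 and 2.88 FPKM in mG-cKO, 1.02, 1.62 and 1.35 FPKM with RTI and 1.44, 1.5 and 1.30 FPKM in Ctrl. Pla2g5, a secreted phospholipase, was 3.5, 4.0 and 4.36 FPKM in mG-cKO, 1.5, 1.67 and 1.20 FPKM with RTI and 1.12, 0.434 and 1.30 FPKM in Ctrl. P2rx7, an ATP-gated channel, was 5.24, 7.23 and 4.77 FPKM in mG-cKO, 2.84, 3.06 and 3.69 FPKM with RTI and 1.84, 1.69 and 2.12 FPKM in Ctrl. Gm16124, an antisense gene, was 0.629, 0.283 and 0.163 FPKM in mG-cKO, 1.22, 0.951 and 0.989 FPKM with RTI and 0.584, 0.834 and 0.453 FPKM in Ctrl. Its treated libraries were thus above Ctrl. Of these, only Gm20634 passed after adjustment between mG-cKO-RTI and mG-cKO. Htr2c, a serotonin receptor, went the other way, with a difference of 0.91 from mG-cKO and 1.39 from Ctrl. It was 9.02, 14.7 and 13.6 FPKM with RTI, 7.97, 3.69 and 7.20 FPKM in mG-cKO and 3.75, 5.27 and 3.25 FPKM in Ctrl. Htr2c passed against Ctrl (limma, adjusted p = 0.00524), and it is also a gene of choroid plexus, whose markers were highest in replicates 2 and 3. 4930429F24Rik, a long noncoding gene, likewise differed more from Ctrl (0.63) than from mG-cKO (0.54). It was 0.926, 1.08 and 1.14 FPKM with RTI, 0.590, 0.441 and 0.231 FPKM in mG-cKO and 0.517, 0.174 and 0.296 FPKM in Ctrl.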
